A study of Danio rerio with 10 samples.

Results

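The *Grainyhead*-like genes and the genes of epithelial junctions were followed in whole zebrafish embryos in which the transcription factor Islet2a had been disrupted by a morpholino or by a mutation. The 10 genes were *grhl1*, *grhl2a*, *grhl2b*, *grhl3*, *tp63*, *ctnnd1*, *cdh1*, *epcam*, *esrp1* and *esrp2*, of 19260 genes that the array annotation names through a single symbol. All 10 were measured, 8 by 1 probe set and 2 (*grhl2b* and *ctnnd1*) by 2 probe sets, which makes 12 of the 75212 probe sets on the array. Where a gene had 2 probe sets, the one with the higher mean over all arrays (the brighter probe set) stands for the gene in the counts, and the dimmer one is given beside it. The set was selected on earlier results of these same arrays. Which values prompted it is not stated in the sources used here. They were assumed to be those of the dimmer probe set of *grhl2b* and the brighter probe set of *ctnnd1* in mutants against controls. For those 2 probe sets the values that involve mutants are therefore descriptions, without a test. Other genes of the set may also have prompted it, and their p-values carry this limit.

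Each sample was RNA from a pool of whole embryos at 48 hpf, with 100 ng hybridized to 1 GeneChip Zebrafish Gene 1.0 ST array. There were 3 arrays of morphants, whose embryos had received T-MO, a morpholino that blocks translation of *islet2a*, and 3 arrays of mutants homozygous for a TALEN-made frameshift deletion in *islet2a*. Controls were 2 arrays of wildtype siblings of the mutants and 2 arrays of uninjected wildtype embryos, joined into a control group of 4 arrays. The sibling arrays are titled as mock controls, but their source and description both name them as wildtype siblings, which was followed here. No array came from embryos injected with a control morpholino (0 arrays), so that injection and knockdown cannot be told apart, and the mutants represent a single allele. No label states if pools were drawn from different clutches, and p-values therefore measure only the spread between these pools.

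Grainyhead-like proteins are transcription factors of surface and lining epithelia, where they keep genes of cell adhesion and barrier formation active. Among the adhesion genes they are known to act on in vertebrates is E-cadherin, encoded by *cdh1*, which joins neighboring epithelial cells at adherens junctions and is held at the membrane by p120-catenin, encoded by *ctnnd1*. The transcription factor p63 (*tp63*) maintains basal epidermal cells, Epcam is an adhesion molecule of epithelial membranes, and the Esrp proteins direct epithelial patterns of RNA splicing. In the fish embryo these genes are known from the epidermis and periderm, the pronephros, the otic vesicle and other lining epithelia.

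All values are log2 signals. Across the 10 arrays, 9 of the 10 genes lay above the median of every array (medians of 4.92 to 4.96), with *grhl2b* the lowest of these at the 66.5 to 74.1 percentile of the probe sets of an array. The exception was *grhl2a*, at the 45 to 53.4 percentile, where a probe set carries little signal. Whole-embryo tissue markers were also present: 6 of 7 measured genes of neurons, muscle, endothelium, cartilage and neural crest lay above every array median, and the lens gene *crygm2d12* did not. The signal of *islet2a* itself was 9.79, 9.96 and 9.91 in morphants, 8.95, 9.12 and 9.13 in mutants, 8.57 and 8.61 in siblings and 8.59 and 8.51 in uninjected embryos. It was higher in both morphants and mutants than in all controls, and it checks neither a block of translation nor a small deletion.

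**Figure D1:**
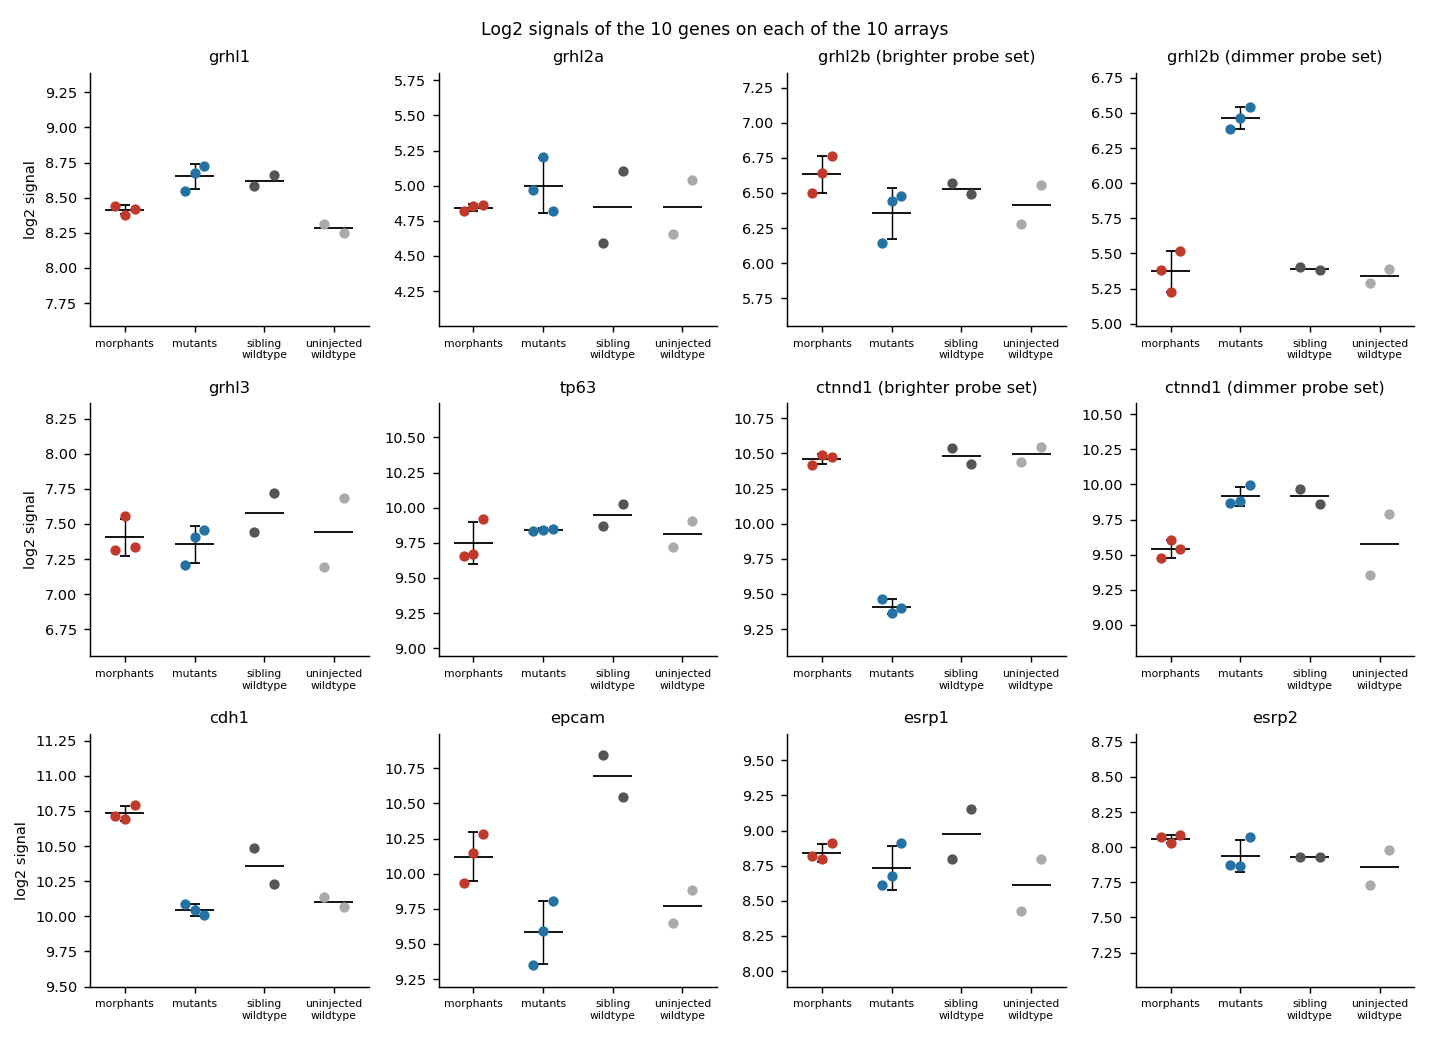
Log2 signal (vertical axis, of equal span in all panels) of the 12 probe sets of the 10 genes on each array. Points are arrays, horizontal lines are group means and bars are the SD of groups of 3. Morphants stand above all other arrays for *cdh1*, siblings stand above the rest for *epcam*, and mutants stand apart for 1 probe set each of *grhl2b* and *ctnnd1*.

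Against controls, the morphants differed in 1 of the 10 genes, *cdh1*, which was higher. A change passed at an adjusted p below 0.05 in limma, with adjustment over all probe sets, and 5.17% of all probe sets passed in this comparison. Among the 19260 genes with a single symbol, taken by 1 probe set each like the 10 genes, the share was 9.94%, so that 1 of 10 lies at the background. None of the 10 genes passed with a change of at least 2-fold (0.818% of all probe sets and 1.18% of the single-symbol genes did). At an unadjusted p below 0.05 from limma the count was 1 of 10, beside 14254 of the 75212 probe sets. In 2 genes, *cdh1* and *esrp2*, the 3 morphant arrays did not overlap the 4 control arrays, beside 17.8% of all probe sets and 28.1% of the single-symbol genes. The median log2 fold change of the 10 genes was -0.017, beside -0.024 over all probe sets and -0.005 over the single-symbol genes. In samples of whole embryos, fewer cells of a type and less RNA per cell cannot be told apart.

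*cdh1* had log2 signals of 10.71, 10.70 and 10.79 in morphants, against 10.49 and 10.23 in siblings and 10.14 and 10.07 in uninjected embryos. The lowest morphant array lay above the highest control array, and the lower values within the controls belonged to the uninjected embryos. The mean was 10.73 ± 0.052 in morphants (SD, n = 3) and 10.23 ± 0.18 in controls (SD, n = 4), a log2 fold change of 0.50 (standard error, SE, of 0.10 and limma adjusted p = 0.0209). An exact two-sided permutation test of the same difference gave p = 0.0571, the smallest that 3 arrays against 4 allow. The limma call did not hold without uninjected replicate 1 (adjusted p = 0.0554) or without morphant replicate 1, 2 or 3 (adjusted p = 0.0754, 0.0568 and 0.0753), while the log2 fold change stayed at 0.47 to 0.52 in these 4 fits. With siblings alone as control it was 0.38 (limma adjusted p = 0.107), and against uninjected embryos alone, in a fit of 4 groups, it was 0.63 (SE 0.10, adjusted p = 0.0191).

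The Grainyhead-like genes themselves did not pass the test in morphants against controls. *grhl1*, known as a regulator of desmosomal cadherins in the mouse, gave 8.44, 8.38 and 8.42 in morphants, against 8.58 and 8.66 in siblings and 8.32 and 8.25 in uninjected embryos. The morphants thus lay between both kinds of wildtype, which did not overlap each other, and the log2 fold change against the joined controls was -0.04 (SE 0.11, limma adjusted p = 0.903). For *grhl2b*, a gene that the zebrafish inner ear needs, the brighter probe set gave 6.50, 6.64 and 6.76 in morphants, against 6.57 and 6.49 in siblings and 6.28 and 6.56 in uninjected embryos. These ranges overlapped (log2 fold change 0.16, SE 0.12, limma adjusted p = 0.517). The dimmer probe set had a log2 fold change of 0.01 (SE 0.09, limma adjusted p = 0.977).

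*grhl3*, which acts in the outer epidermis and in neural tube closure in the mouse, gave 7.32, 7.56 and 7.34 in morphants, against 7.44 and 7.72 in siblings and 7.20 and 7.69 in uninjected embryos. The uninjected arrays alone spanned nearly the whole range of this gene. Its log2 fold change was -0.11, with a 95% interval of -0.41 to 0.20. The dim *grhl2a*, the paralog of *grhl2b*, had 4.82 to 4.86 in morphants and 4.59 to 5.10 in controls, with a 95% interval of -0.32 to 0.31 for the log2 fold change. The intervals leave out 2-fold changes of signal in either direction for all 4 Grainyhead-like genes. For the dim *grhl2a*, with little signal, this says little about its transcript.

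Of the other genes, *tp63* gave 9.66, 9.67 and 9.92 in morphants, against 9.87 and 10.03 in siblings and 9.72 and 9.91 in uninjected embryos, and the groups overlapped (log2 fold change -0.13, SE 0.10, limma adjusted p = 0.536). *ctnnd1* was close to equal by its brighter probe set, with 10.42 to 10.49 in morphants and 10.43 to 10.55 in controls, a log2 fold change of -0.03 (95% interval -0.19 to 0.14). Its dimmer probe set had 9.48 to 9.60 in morphants and 9.36 to 9.97 in controls (log2 fold change -0.20, limma adjusted p = 0.465). Of the splicing factors, *esrp2* gave 8.07, 8.03 and 8.08 in morphants, against 7.93 and 7.93 in siblings and 7.73 and 7.98 in uninjected embryos. Every morphant array was above every control array, but the change was small and did not pass (log2 fold change 0.17, SE 0.09, limma adjusted p = 0.358). *esrp1* ranged from 8.80 to 8.91 in morphants and from 8.43 to 9.15 in controls (log2 fold change 0.05, SE 0.15).

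**Figure D2:**
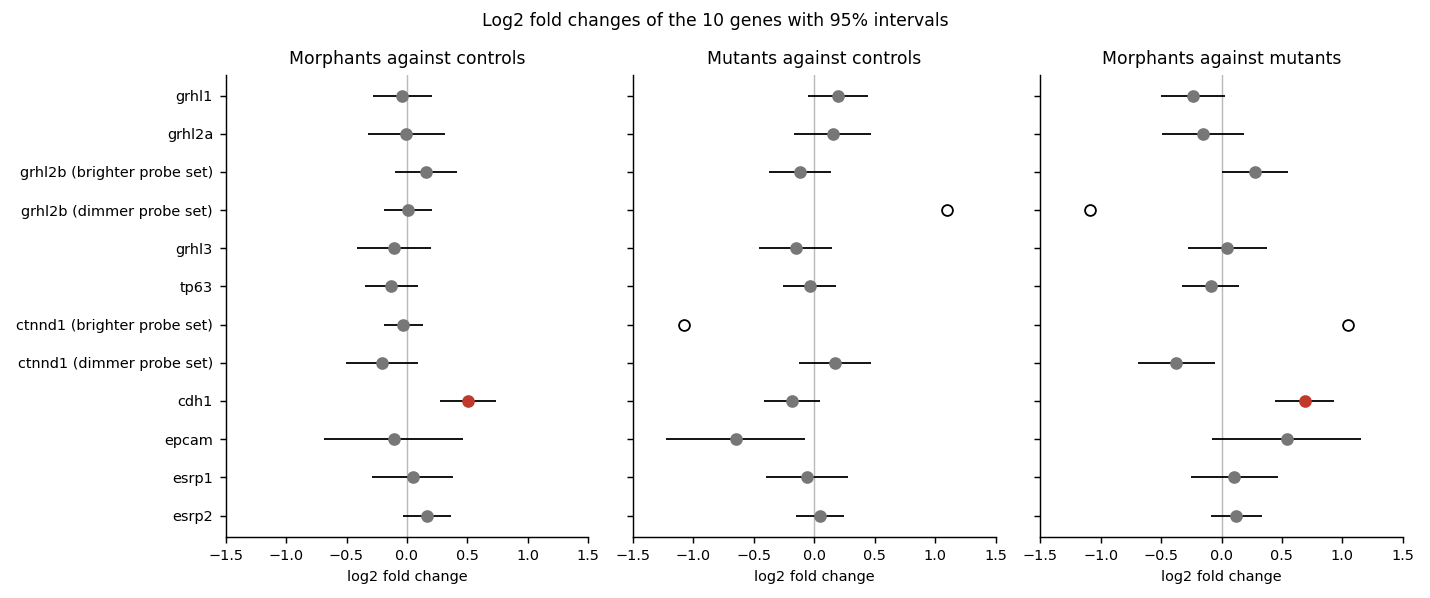
Log2 fold changes (horizontal axis) of the 12 probe sets in the 3 comparisons, with 95% intervals. Red points passed at an adjusted p below 0.05 and grey points did not. Open points without an interval are the 2 probe sets whose values in mutants were assumed to have selected the set. *cdh1* is the single red point in morphants against controls, at 0.50, and in morphants against mutants, at 0.69.

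In mutants against controls, 1 of the 10 genes passed, which was *ctnnd1*, one of the genes that the set was assumed to be selected on. In this comparison 0.338% of all probe sets passed, 0.164% passed with a change of at least 2-fold, and 12.1% had groups that did not overlap. Of the single-symbol genes, these shares were 0.306%, 0.109% and 16.8%. The corresponding counts for the 10 genes were 1, 1 and 1, all of them *ctnnd1*, and nothing is read from them. The median log2 fold change of the 10 genes was -0.09, beside 0.01 over all probe sets and -0.007 over the single-symbol genes. The other 9 genes did not pass, and their limma adjusted p ran between 0.312 and 0.912.

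The brighter probe set of *ctnnd1* gave 9.47, 9.36 and 9.40 in mutants, against 10.54 and 10.43 in siblings and 10.44 and 10.55 in uninjected embryos. All 3 mutant arrays lay about 1 log2 unit below all controls, at 9.41 ± 0.052 in mutants (SD, n = 3), against 10.49 ± 0.063 in controls (SD, n = 4), and the log2 fold change was -1.08. The dimmer probe set of the same gene gave 9.87, 9.88 and 9.99 in mutants, against 9.97 and 9.86 in siblings and 9.36 and 9.79 in uninjected embryos. Here the mutants overlapped the siblings and lay above the uninjected embryos, with a log2 fold change of 0.17 against all controls (SE 0.13, limma adjusted p = 0.640).

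*grhl2b* showed the opposite arrangement. Its dimmer probe set gave 6.38, 6.47 and 6.54 in mutants, against 5.41 and 5.38 in siblings and 5.29 and 5.39 in uninjected embryos. Mutants averaged 6.46 ± 0.077 (SD, n = 3), against 5.37 ± 0.053 in controls (SD, n = 4), which is a log2 fold change of 1.1. The brighter probe set, which stands for the gene by the rule, gave 6.14, 6.44 and 6.48 in mutants, against 6.57 and 6.49 in siblings and 6.28 and 6.56 in uninjected embryos, and the groups overlapped (log2 fold change -0.12, SE 0.12, limma adjusted p = 0.717).

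The probe sets of each gene were therefore set against each other within each array, a comparison made after these values were seen. For *grhl2b*, the brighter minus the dimmer probe set was 1.12, 1.42 and 1.25 in morphants and -0.24, -0.02 and -0.06 in mutants, against 1.16 and 1.11 in siblings and 0.99 and 1.17 in uninjected embryos. For *ctnnd1* it was 0.94, 0.89 and 0.93 in morphants and -0.40, -0.52 and -0.60 in mutants, against 0.57 and 0.57 in siblings and 1.08 and 0.76 in uninjected embryos. In both genes the mutants stood apart from the 7 other arrays, and the morphants did not stand apart from the uninjected embryos.

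Over the 1365 genes with several probe sets, the median spread between the log2 fold changes of the probe sets of a gene was 0.13 in mutants against controls. The spread was 1.22 for *grhl2b* and 1.25 for *ctnnd1*, and it was at least as large in 12 genes (0.879%) and in 11 genes (0.806%), each count including the gene itself. These shares rest on the mutant values that were assumed to have selected the set and are descriptions. In morphants against controls the spreads were 0.15 for *grhl2b* and 0.17 for *ctnnd1*, beside a median of 0.15. Which exons or transcripts each probe set covers is not given in the sources used here.

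**Figure D3:**
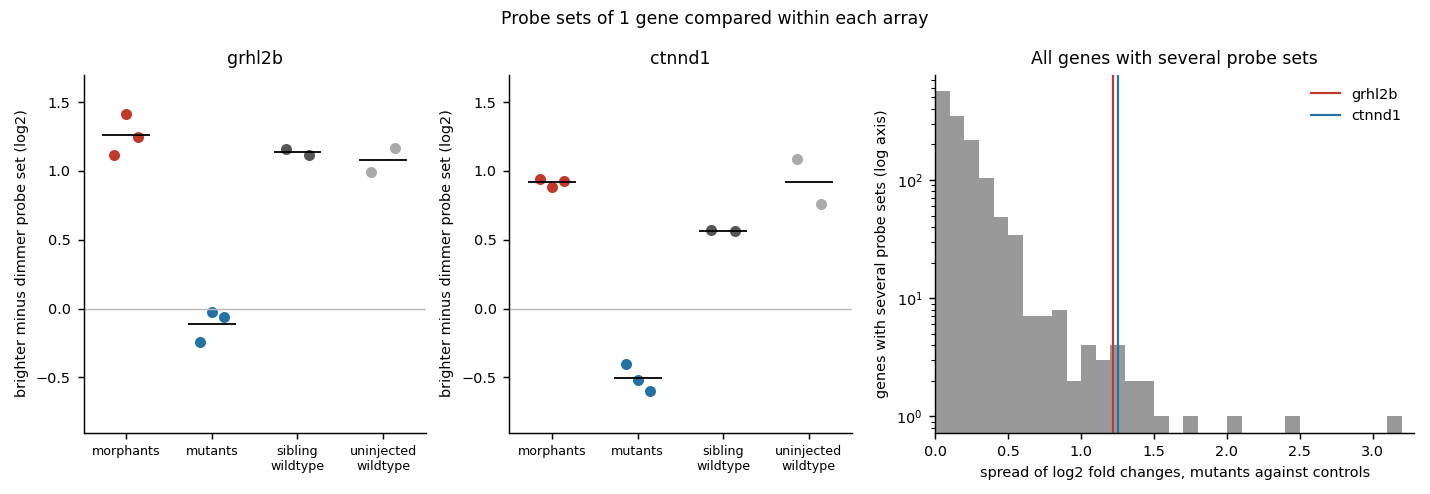
Brighter minus dimmer probe set (log2) on each array for *grhl2b* and *ctnnd1*, and, in the right panel, the number of genes (log axis) by the spread of log2 fold changes between probe sets of 1 gene in mutants against controls. Mutants lie near or below 0 where all other arrays lie between 0.57 and 1.42, and the spreads of 1.22 and 1.25 lie far from the median of 0.13.

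Apart from *grhl2b* and *ctnnd1*, *epcam* had the largest fold change in mutants among the genes of the set. It gave 9.35, 9.59 and 9.80 in mutants, against 10.84 and 10.55 in siblings and 9.65 and 9.89 in uninjected embryos. The mutants were below both sibling arrays but overlapped the uninjected arrays, and the log2 fold change against the joined controls was -0.65 (SE 0.26, limma adjusted p = 0.312). Against siblings alone, in a fit of 4 groups, it was -1.11 (SE 0.17, adjusted p = 0.0514), just short of the threshold. *cdh1* gave 10.09, 10.04 and 10.01 in mutants, below all sibling arrays (10.49 and 10.23) and overlapping the uninjected arrays (10.14 and 10.07). Its log2 fold change was -0.18 against the joined controls (SE 0.10, limma adjusted p = 0.490) and -0.31 against siblings (SE 0.10, adjusted p = 0.370).

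*grhl1* had 8.55, 8.68 and 8.73 in mutants, which overlapped the siblings (8.58 and 8.66) and lay above the uninjected embryos (8.32 and 8.25). Its log2 fold change was 0.20 against the joined controls (SE 0.11, limma adjusted p = 0.488) and 0.03 against siblings. *grhl3* gave 7.20 to 7.46 in mutants and 7.20 to 7.72 in controls, and *grhl2a* gave 4.82 to 5.21 in mutants and 4.59 to 5.10 in controls. *tp63* was nearly the same on the 3 mutant arrays (9.83, 9.84 and 9.85), inside the 9.72 to 10.03 of the controls. *esrp1* had 8.61 to 8.91 in mutants and 8.43 to 9.15 in controls, and *esrp2* had 7.87 to 8.07 in mutants and 7.73 to 7.98 in controls, with log2 fold changes of -0.06 and 0.05. None of these genes separated mutants from controls.

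Set directly against each other, morphants and mutants differed in 2 of the 10 genes, *cdh1* and *ctnnd1*, both higher in morphants. In this comparison 13.6% of all probe sets passed, 2.52% passed with a change of at least 2-fold, and 35.4% had groups that did not overlap, while among the 10 genes these counts were 2, 1 and 5. The shares of the single-symbol genes were 23.1%, 2.98% and 48.6%. As each of the 3 counts includes *ctnnd1*, nothing is read from them. *cdh1* averaged 10.73 ± 0.052 in morphants and 10.05 ± 0.041 in mutants (SD, n = 3 each), with a log2 fold change of 0.69 (SE 0.11, limma adjusted p = 0.00365). The exact permutation test gave p = 0.1, the smallest that 3 arrays against 3 allow. The *cdh1* call held in all 22 alternative analyses, with an adjusted p of 0.000661 to 0.0183. *ctnnd1*, by its brighter probe set, averaged 10.46 ± 0.037 in morphants and 9.41 ± 0.052 in mutants (SD, n = 3 each). Its log2 fold change of 1.05 rests on the values that were assumed to have selected the set.

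The other genes whose 3 morphant arrays did not overlap the 3 mutant arrays were *grhl1*, *grhl2b* and *epcam*, and none of them passed. The log2 fold change of *grhl1* was -0.24 (SE 0.12, limma adjusted p = 0.233), with morphants lower. That of *grhl2b* by the brighter probe set was 0.28 (SE 0.12, limma adjusted p = 0.172), with morphants higher, and by the dimmer probe set it was -1.09. *epcam* gave 9.93, 10.15 and 10.28 in morphants, against 9.35, 9.59 and 9.80 in mutants, and the log2 fold change was 0.54 (SE 0.28, limma adjusted p = 0.241). The median log2 fold change of the 10 genes was 0.11, beside -0.04 over all probe sets and -0.001 over the single-symbol genes.

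Both kinds of wildtype lay apart for several of the epithelial genes, without passing the test. Siblings were above uninjected embryos in 9 of the 10 genes (47.2% of all probe sets and 48.4% of the single-symbol genes were), though in *grhl2a* by only 0.0002. The median log2 difference was 0.14, beside -0.01 over all probe sets and -0.006 over the single-symbol genes. Both kinds of wildtype overlapped in all of the 10 genes except *epcam*, *esrp1*, *grhl1* and *cdh1*. The difference was largest for *epcam*, at 10.84 and 10.55 in siblings, against 9.65 and 9.89 in uninjected embryos, a log2 difference of 0.92 (SE 0.18). It did not pass (limma adjusted p = 0.191), nor did *esrp1* (0.36, adjusted p = 0.727), *grhl1* (0.34, adjusted p = 0.490) or *cdh1* (0.25, adjusted p = 0.716). None of the 10 passed, and 24 of all 75212 probe sets did. An unadjusted p below 0.05 from limma was found in 2 of the 10 and in 5308 of the 75212 probe sets. Only 2 arrays of each kind stand behind these differences.

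Because of this, the change of morphants against uninjected embryos was also compared with the change of mutants against siblings, in 1 contrast of the 4 groups. This difference passed in 3 of the 10 genes, *epcam*, *cdh1* and *ctnnd1*, beside 0.775% of all probe sets and 1.27% of the single-symbol genes. As the count includes *ctnnd1*, nothing is read from it. The gap between siblings and uninjected embryos (0.92 for *epcam* and 0.25 for *cdh1*) is part of each difference. For *epcam*, the change was 0.35 in morphants (SE 0.17) and -1.11 in mutants (SE 0.17), a difference of 1.46 (SE 0.24, limma adjusted p = 0.0339). For *cdh1*, it was 0.63 in morphants and -0.31 in mutants (SE 0.10 each), a difference of 0.94 (SE 0.15, limma adjusted p = 0.0300). In both genes the morphants lay above their own wildtype and the mutants below theirs on every array. For *ctnnd1* the difference was 1.04, from -0.04 in morphants and -1.07 in mutants, and it is a description.

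The differences for *epcam* and *cdh1* were near the threshold and depended on single arrays for their call, though not for their direction. For *epcam*, leaving out any 1 array gave a difference of 1.32 to 1.61, with none of the 10 fits passing (adjusted p = 0.0501 without mutant replicate 1 to 0.112 without uninjected replicate 1). For *cdh1*, it gave 0.81 to 1.07, and the call held without sibling replicate 2 and without mutant replicate 1 alone. Without the others the adjusted p from limma was 0.0559 (morphant replicate 2) to 0.0849 (uninjected replicate 1). *esrp1*, whose arrays overlapped those of the own wildtype in both changes, had a difference of 0.47 (SE 0.22, limma adjusted p = 0.334). The brighter probe set of *grhl2b* had a difference of 0.39 (SE 0.20, limma adjusted p = 0.378). For *tp63*, *grhl1*, *grhl2a*, *grhl3* and *esrp2*, the differences were -0.16 to 0.20 (limma adjusted p = 0.593 to 0.931).

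The genes most like *ctnnd1* and *grhl2b* were sought among 19259 genes by Pearson's r over the 10 arrays, which is a description that mixes the groups. The brighter probe set of *ctnnd1* was most like *ackr3b* (0.97), *prex1* (0.97), *acad8* (0.96), *galns* (0.96) and *skib* (0.94). The brighter probe set of *grhl2b* was most like *retsat.1* (0.93), *gprc5c* (0.92), *emilin1b* (0.91), *si:dkey-261l7.2* (0.90) and *chrna11* (0.90). None of these 10 genes is on the lists of epithelial genes used here. The dimmer probe sets ranked other genes first, *trappc6b* (0.98) for *ctnnd1* and *LOC100329398* (0.97) for *grhl2b*. Between the 2 probe sets of a gene, r was -0.52 for *ctnnd1* and -0.44 for *grhl2b*. The rankings of the brighter *ctnnd1* and the dimmer *grhl2b* probe set include the mutant values assumed to have selected the set.

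The surroundings of the 10 genes were described with 11 lists of 200 related genes, of which 170 were measured. In mutants against controls, none of the listed genes passed in any list with limma, whereas between 0 and 6 genes of each list had an unadjusted p below 0.05. Tight junction genes, which seal epithelial sheets, did not pass in morphants against controls or against mutants (0 of 24, with 2 and 3 genes at an unadjusted p below 0.05). Of 16 adherens junction genes, *nectin1a*, a cell adhesion molecule, fell in morphants against controls (log2 fold change -0.39, limma adjusted p = 0.0247). Against mutants 18.8% of this list passed, beside 23.1% of single-symbol genes. Of these, *nectin1a* (-0.53) and *nectin1b* (-0.43) were lower and *nectin3b* (0.57) was higher in morphants. The products of the catenin genes *ctnna1*, *jupa* and *jupb* are found with p120-catenin in cadherin complexes. These genes had log2 fold changes of -0.15, -0.21 and -0.21 in morphants against controls and did not pass.

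Of 20 desmosome and hemidesmosome genes, none passed in morphants against controls (3 had an unadjusted p below 0.05). Against mutants 20% of this list passed, beside 23.1% of single-symbol genes. Of these, *itga6a* (0.63) and *pkp3b* (0.47) were higher and *col17a1a* (-0.68) and *ppl* (-0.59) were lower in morphants. The desmosomal cadherin *dsg2.1* passed when the changes of morphants and of mutants from their own wildtype were compared, at 1.05 (SE 0.17, limma adjusted p = 0.0310). The gap between both kinds of wildtype is part of this difference, and its call was not examined with single arrays left out. *dsg2.1* did not pass in morphants or mutants against the joined controls or in morphants against mutants. Of 20 epithelial regulators and known Grainyhead targets, 2 rose in morphants against controls (10%, beside 9.94% of single-symbol genes). These were *klf5a*, a transcription factor of epithelial cells (0.73, limma adjusted p = 0.0387), and *spint1b*, which encodes an inhibitor of membrane serine proteases in the epidermis (0.48, adjusted p = 0.0119). Against mutants 4 of the 20 were higher, among them *ovol1a* (0.79), *klf5a* (0.79) and *spint1b* (0.57), and 1 was lower, *tfap2c* (-0.59). Together they were 25% of the list, beside 23.1% of single-symbol genes.

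Of 17 periderm and epidermis genes, 4 rose in morphants against controls (23.5%, beside 9.94% of single-symbol genes), though 0 passed against uninjected embryos alone. They were *anxa1b*, an annexin (0.83, limma adjusted p = 0.0233), *icn*, an S100-type calcium-binding protein (0.52, adjusted p = 0.0156), *ecrg4b* (0.35, adjusted p = 0.0442) and the keratin gene *krt18a.1* (0.34, adjusted p = 0.0487). Against mutants 4 were higher and 2 lower (35.3%, beside 23.1% of single-symbol genes), with *anxa1b* at 1.5 and the keratin gene *krt91* at -0.63. The mean of this list was 9.70 to 9.79 in morphants, 9.60 to 9.63 in mutants, 9.72 to 9.73 in siblings and 9.57 to 9.68 in uninjected embryos. These list means were not tested, and the median log2 fold change of the 17 genes in morphants against mutants was 0.10, with 11 of them positive. The periderm keratin gene *krt4* was flat, at 12.79 to 12.94 in morphants, mutants and controls (log2 fold change 0.04 in morphants against controls, limma adjusted p = 0.850). The part of the epidermal share of the embryo in the *cdh1* result was not tested.

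**Figure D4:**
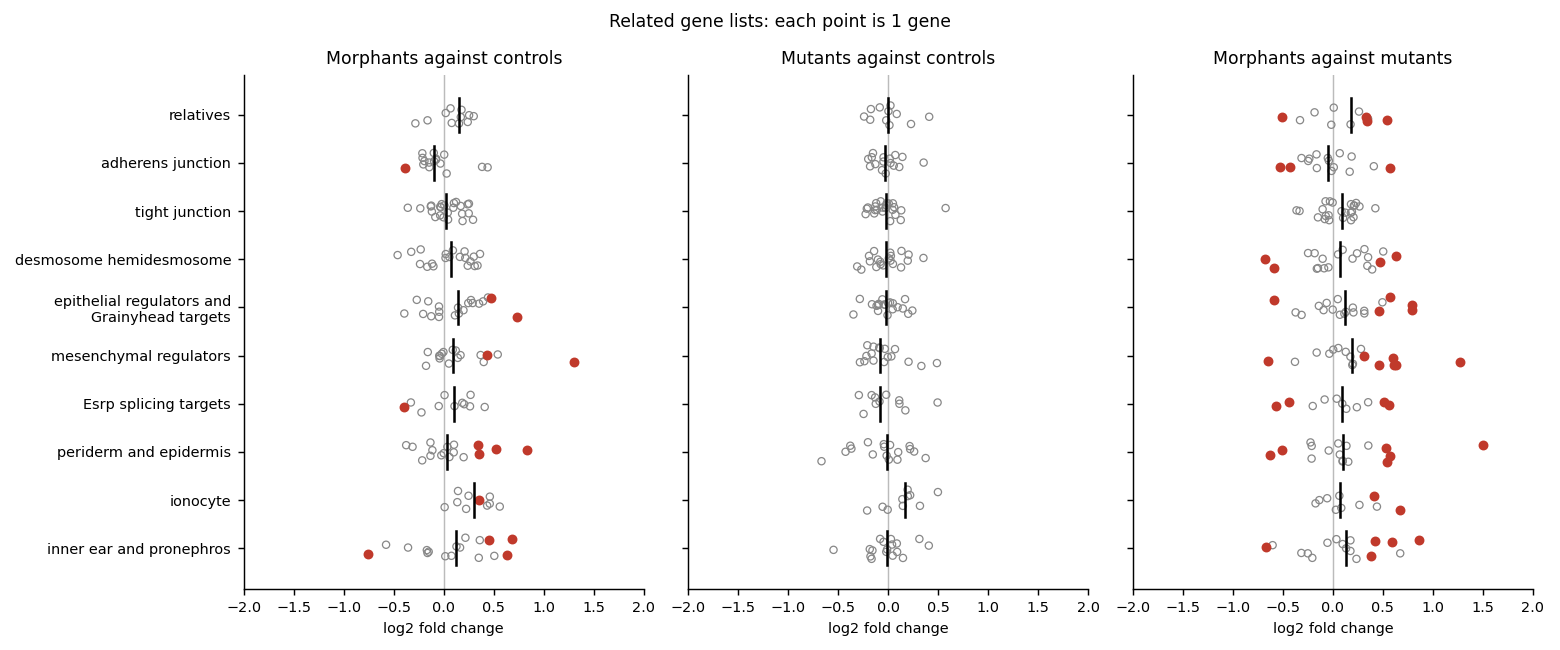
Log2 fold changes (horizontal axis) of the measured genes of 10 related lists in the 3 comparisons. Each point is a gene, red points passed at an adjusted p below 0.05, and black bars are list medians. No listed gene passed in mutants against controls, beside 0.306% of the single-symbol genes. In morphants against controls, 15 genes of these lists rose or fell, and nothing is read from this total. The lists hold all of the 170 measured genes except the 7 whole-embryo tissue markers. The share by list was 0% to 23.5%, beside 9.94% of the single-symbol genes.

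Some genes of mesenchyme were also higher in morphants. Of 17 mesenchymal regulators and markers, 2 rose in morphants against controls (11.8%, beside 9.94% of single-symbol genes). The median log2 fold change of the list was 0.09, with 10 of the 17 positive. Those that rose were *fn1b*, which encodes a fibronectin (1.3, SE 0.15, limma adjusted p = 0.0012), and *twist3* (0.43, adjusted p = 0.0473). Against mutants, 41.2% of the list passed, beside 23.1% of single-symbol genes. Of the 17 genes, 6 were higher, among them *fn1b* (1.27), and *zeb2b* was lower (-0.65). Also among the 6 were *snai1b* (0.63) and *snai2* (0.61), whose products are known repressors of E-cadherin. *zeb1a*, *zeb1b* and *vim* did not pass in any comparison, with log2 fold changes of -0.04, -0.02 and -0.18 in morphants against controls. N-cadherin (*cdh2*), the cadherin of neural tissue, had a log2 fold change of 0.18 in morphants and 0.00 in mutants against controls (limma adjusted p = 0.234 and 0.998).

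Of 11 genes whose splicing Esrp proteins are known to direct in mammals, *arhgef11* fell in morphants against controls (-0.40, limma adjusted p = 0.0333). Against mutants 36.4% of this list passed, beside 23.1% of single-symbol genes. Of these, *fgfr1b* (0.56) and *nf2b* (0.52) were higher, and *arhgef11* (-0.57) and *rbfox2* (-0.44) lower, in morphants. These are levels of whole genes and carry no measure of splicing. *fgfr2* and *cd44a* did not pass, with log2 fold changes of 0.01 and 0.41 in morphants against controls. Of 11 relatives of the 10 genes, none passed against controls, and 36.4% passed in morphants against mutants, beside 23.1% of single-symbol genes. Of these, *ctnnd2b* (0.54), *arvcfb* (0.34) and *tfcp2* (0.33) were higher and *ctnnd2a* (-0.51) lower in morphants.

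In lists of other epithelia, 1 of 10 ionocyte genes rose in morphants against controls, *ca2*, a carbonic anhydrase (0.36, limma adjusted p = 0.0466). All 10 had positive log2 fold changes (median 0.30), beside 44.7% of all probe sets and 49% of single-symbol genes. Of all arrays, uninjected replicate 1 had the lowest mean of this list (6.72). In mutants against controls 7 of the 10 were positive (median 0.17), and in morphants against mutants 7 were (median 0.07). In morphants against controls, 3 of 17 genes of the inner ear and pronephros rose and 1 fell (23.5%, beside 9.94% of single-symbol genes). Those that rose included *oc90*, of the otolith matrix (0.68, limma adjusted p = 0.0174), and *pcdh15a*, of hair cells (0.63, adjusted p = 0.0325). *slc20a1a* rose too (0.46, limma adjusted p = 0.0178). *tectb*, of the tectorial and otolithic membranes, fell (-0.75, limma adjusted p = 0.0185). Of the tissue markers, the dim *crygm2d12* was lower in morphants than in controls (-0.77) and mutants (-1.20), and *sox10* was lower in morphants than in mutants (-0.35, limma adjusted p = 0.0315).

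The difference between both kinds of wildtype that was seen for *epcam* recurred in some list means, in part through 1 low array. Uninjected replicate 1 was the lowest of all arrays in the desmosome and hemidesmosome (7.44), tight junction (7.08) and periderm and epidermis (9.57) lists. It was also the lowest in the epithelial regulator (7.52) and ionocyte (6.72) lists. In the adherens junction, epithelial regulator and ionocyte lists both kinds of wildtype overlapped. The mean of the desmosome and hemidesmosome genes was 7.68 to 7.80 in morphants, 7.66 to 7.70 in mutants, 7.82 to 7.85 in siblings and 7.44 and 7.67 in uninjected embryos. Of these 20 genes, 18 were higher in siblings (median log2 difference 0.31), and of the 24 tight junction genes 19 were (median 0.11), although 0 genes of either list passed (9 and 5 had an unadjusted p below 0.05). Against siblings, 5 of the 20 desmosome and hemidesmosome genes had a positive log2 fold change in mutants (median -0.20), beside 49.4% of single-symbol genes. Against uninjected embryos 17 of the 20 did in morphants (median 0.23), beside 49.2%. The gap between both kinds of wildtype is part of this contrast. In morphants directly against mutants 11 of the 20 were positive (median 0.07), and in mutants against the joined controls 10 were (median -0.02).

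**Figure D5:**
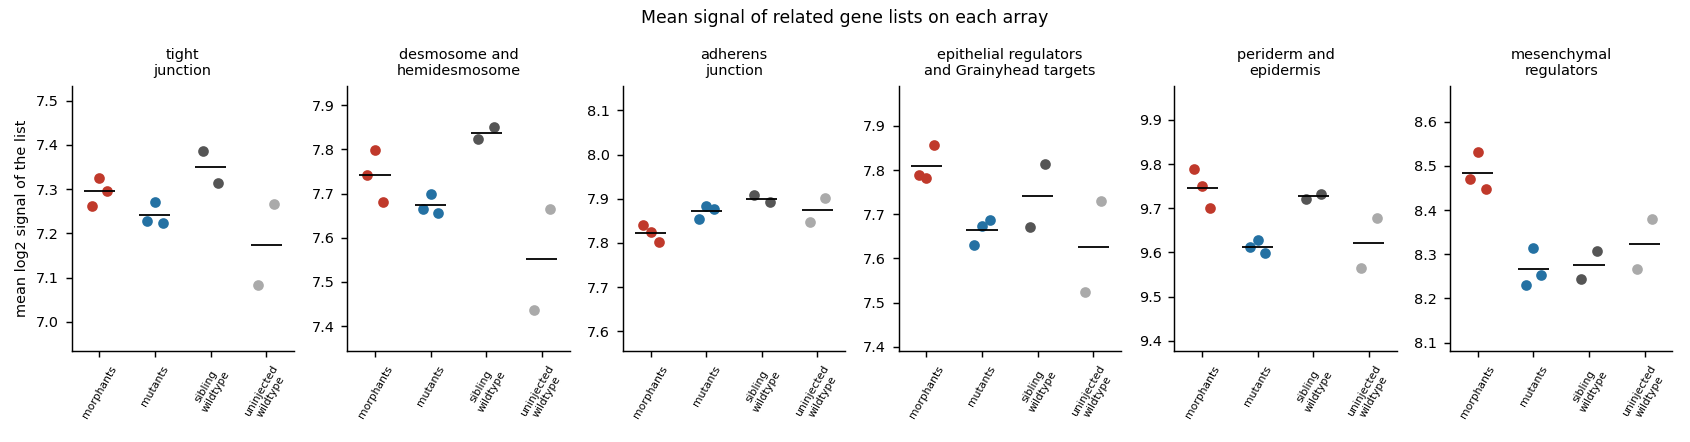
Mean log2 signal of 6 related gene lists on each array (vertical axis, of equal span in all panels). Points are arrays and lines are group means. In the desmosome and hemidesmosome list siblings (7.82 to 7.85) lie above uninjected embryos (7.44 and 7.67), and in the mesenchymal list morphants (8.45 to 8.53) lie above all other arrays. In morphants against controls, 10 of the 17 mesenchymal genes had a positive log2 fold change (median 0.09), with *fn1b* at 1.3. The list means were not tested.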

How the data were processed

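The deposited values were log2 signals of 75212 probe sets on 10 arrays, which the authors had computed by RMA (robust multi-array average, oligo package in R, version not given in the sources used here), which equalizes the distributions of arrays. The submitters' processing notes name GCRMA instead, with no version. They were used without further normalization or filter. The array annotation gave 20806 probe sets 1 symbol, 855 several and 53551 none, and 20323 identifiers were found in a zebrafish reference annotation (GRCz12tu), which updated the names. There were 0 columns of other samples.

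limma 3.58.1 in R 4.3.3 (lmFit, eBayes) fitted 1 mean per group over all 10 arrays, two-sided, with Benjamini-Hochberg adjustment over all probe sets and a threshold of 0.05. Own-wildtype contrasts came from a fit with 4 groups. Exact permutation tests doubled the smaller tail. The median SD within groups was 0.165, and the number of arrays limits the precision. The fit was tested on simulated data. Named genes were the 10 genes, *islet2a*, fixed markers, up to 4 passing genes per list and comparison with the largest change, and the 5 genes most like *grhl2b* and *ctnnd1*. The members and lists were chosen with earlier results of these data known. Alternatives were other tests, controls, normalizations, filters, priors, weights, a replicate block, other probe sets and each array left out. Sequences of these genes and probes were not analysed here. matplotlib 3.10.9 drew the figures.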

Additional observations from a re-analysis of the deposited data

Results flagged for a closer look

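The changes of morphants and mutants from their own wildtype differed in 3 of 10 genes, beside 0.775% of all probe sets and 1.27% of single-symbol genes. As the count includes *ctnnd1*, nothing is read from it. For *epcam* the log2 difference between these changes was 1.46 (adjusted p = 0.0339 from limma), with every morphant array above the uninjected arrays and every mutant array below the sibling arrays. The siblings were above the uninjected embryos by 0.92 for this gene, which did not pass (adjusted p = 0.191 from limma), and this gap is part of the 1.46. For *cdh1* it was 0.941 (adjusted p = 0.0300 from limma), with the same arrangement of arrays, and the wildtype gap of 0.25 is part of it. For *ctnnd1* it was 1.04 by the brighter probe set, which rests on the mutant signals assumed to have selected this gene, and -0.03 by the dimmer probe set. With any 1 array left out, the difference of *epcam* did not pass. That of *cdh1* then passed only without sibling replicate 2 or without mutant replicate 1.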

How the results depend on the processing

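Alternatives changed no direction of *cdh1* in any comparison. The count of the 10 genes that passed in morphants against controls (1) was 0 under pairwise ANOVA, limma on the arrays of 2 groups, siblings alone as control and the replicate block, and 0 to 1 with 1 array left out (0 without uninjected replicate 1 or any morphant). In mutants against controls it was 0 with the mean of all probe sets of a gene. For the difference between the changes (3), it was 0 with the replicate block and 0 to 2 with 1 array left out (0 without uninjected replicate 1 or sibling replicate 1). Deviations of same-numbered arrays from their group means correlated at -0.0972 to 0.223 over 13 pairs, 2 of them over 0.1. Over 24 pairs with other numbers they correlated at -0.223 to 0.0992, with 0 over 0.1. In a group of 2 arrays the deviations mirror each other, so this check cannot decide if the numbers pair the arrays. No other count of the 10 genes moved with the replicate block.

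Changes of sign were as follows, on the log2 scale. With uninjected embryos alone as control, *grhl1* was 0.134 and *epcam* 0.353 in morphants, and *tp63* 0.028 and *esrp1* 0.122 in mutants. In morphants against controls, *esrp1* was -0.136 with siblings alone, -0.0161 after repeated quantile normalization and -0.0154 with the replicate block, and *grhl2a* was 0.0213 with array weights and 0.0362 with the block. The difference of changes of *tp63* was -0.0202 after quantile normalization. With the mean of its probe sets *grhl2b* was 0.489 in mutants against controls, -0.406 in morphants against mutants and -0.322 for the difference. With the dimmer probe set, an alternative added after the data were seen, these were 1.1, -1.09 and -1.04 for *grhl2b* and 0.171, -0.375 and -0.0323 for *ctnnd1*.

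Leaving out 1 array gave ranges that crossed 0 in morphants against controls for *esrp1* (-0.0762 to 0.166), *grhl2a* (-0.089 to 0.0811), *grhl1* (-0.106 to 0.0323) and *epcam* (-0.303 to 0.0937). They crossed 0 in mutants against controls for *esrp2* (-0.0219 to 0.0812), *tp63* (-0.0916 to 0.0096) and *esrp1* (-0.183 to 0.0589), and in morphants against mutants for *grhl3* (-0.0293 to 0.0984). For the difference they did for *grhl3* (-0.0595 to 0.431), *tp63* (-0.0506 to 0.134) and *grhl2a* (-0.41 to 0.10). The cause was not tested. Over all probe sets, passes in morphants against controls (3886) were 887 with ANOVA to 5033 with a filter on dim probe sets, in mutants against controls (254) 11 with ANOVA to 569 without mutant replicate 1 and 56 without mutant replicate 2, in morphants against mutants (10235) 2639 with ANOVA to 13424 with array weights, and for the difference (583) 131 without uninjected replicate 1 to 1282 with 1 probe set per gene.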
